A study of Mus musculus with 12 samples.

Results

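The genes described here are those of the major histocompatibility complex (MHC) and of antigen presentation in mouse liver: every gene whose name in the array files begins with H2-, together with B2m, Tap1, Tap2, Tapbp, Cd74, Psmb8, Psmb9 and Psmb10. They number 44 of the 20614 named genes on the array and are read by 67 probes, 29 of the genes by a single probe. The members were chosen by name. Livers came from 12 male C57BL/6 mice aged 8 to 10 weeks, each mouse on its own array, and all of the animals had had their adrenal glands removed, so that they lacked their own glucocorticoids. There were 4 groups of 3 mice: wild-type untreated (WT_untreated), wild-type given dexamethasone (WT_dex), HESKOL untreated (HESKOL_untreated) and HESKOL given dexamethasone (HESKOL_dex). Dexamethasone, a synthetic glucocorticoid, was injected into the peritoneum at 1 mg/kg and the liver was taken 6 h later. The labels describe no vehicle injection for the untreated mice. They do not spell out HESKOL, an animal set against controls in a study titled for Hes1 and liver glucocorticoid signalling, and name neither a Cre driver nor the deleted part of the gene.

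Class I MHC molecules stand on nearly all nucleated cells and show peptides from the cell's own proteins to CD8 T cells. A heavy chain pairs with beta-2 microglobulin, the peptide is cut by the proteasome, whose immune form carries the subunits Psmb8, Psmb9 and Psmb10, and is pumped into the endoplasmic reticulum by the transporter Tap1-Tap2 and loaded with the help of tapasin (Tapbp). Class II molecules are made mainly by dendritic cells, macrophages and B cells and show peptides from endosomes to CD4 T cells; in liver these cells lie among a majority of hepatocytes. Interferon gamma is the classical inducer of both systems, through Irf1 and, for class II, the coactivator Ciita, and glucocorticoids are classical suppressors of inflammatory gene expression.

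Levels are given as log2 processed signal minus that of the 75th percentile over each array's non-control spots. Those percentiles lay between 896.7 and 1614.4 intensity units, and 61.47% to 71.88% of probes were well above background on an array. All 7 hepatocyte markers on the array were well above background on all 12 arrays. Hes1 itself read -1.53 ± 0.34 (SD, n = 3) in WT_untreated, -2.22 ± 0.93 in WT_dex, -2.65 ± 0.38 in HESKOL_untreated and -3.32 ± 0.47 in HESKOL_dex; whether its probe lies in the deleted part is not given in the sources used here. Replicate 1 of WT_dex stood apart. Its genes deviated from their group means by 0.99 (root mean square, log2), against 0.46 to 0.80 on the other arrays, and its summed bile duct markers (Krt19, Krt7, Epcam and Sox9) reached 4.51 against at most 1.23 elsewhere. The arrays lay on 3 slides, and on no slide did 1 genotype appear both with and without dexamethasone: WT_untreated shared slide 1 with 1 HESKOL_untreated liver, the other HESKOL_untreated livers shared slide 2 with 2 WT_dex livers, and the last WT_dex liver shared slide 3 with HESKOL_dex. The main results for the members are therefore also given without WT_dex replicate 1, and with the slide as a block. For most single genes of the marker and pathway lists neither of these checks is given.

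Of the 44 genes, 34 were measured well enough to be tested, that is, all 3 arrays of some group read them well above background. With the genotypes averaged, dexamethasone lowered 2 of these 34, the immunoproteasome subunit Psmb9 and the peptide transporter Tap1, and raised none (limma, Benjamini-Hochberg adjusted p under 0.05 over all 18730 features tested). In that comparison 11.8% of all features changed and 6.51% fell, so that the share of members that fell was near the background. Within a single genotype no member passed: 0 of 34 in wild-type liver, where 0.192% of all features passed, and 0 of 34 in HESKOL liver, where 7.86% did. At an unadjusted p under 0.05 there was 1 member in wild-type liver (11.8% of all features), 6 in HESKOL liver (24.6%) and 9 with the genotypes averaged (28.4%), all lower.

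The direction was uneven between roles. The median log2 change with dexamethasone, genotypes averaged, was -0.93 for 9 class II chains and accessory genes, -0.49 for 6 immunoproteasome and loading genes and -0.05 for 16 class I heavy chains, beside -0.01 over all features. With the slide as a block the same medians were 0.33, -0.15 and 0.28, so the sign turned for class II and class I, and no member was called. Treatment and slide overlap so far in this design that the blocked dexamethasone effect can be reached only through comparisons of unlike genotypes on 1 slide.

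**Figure D1:**
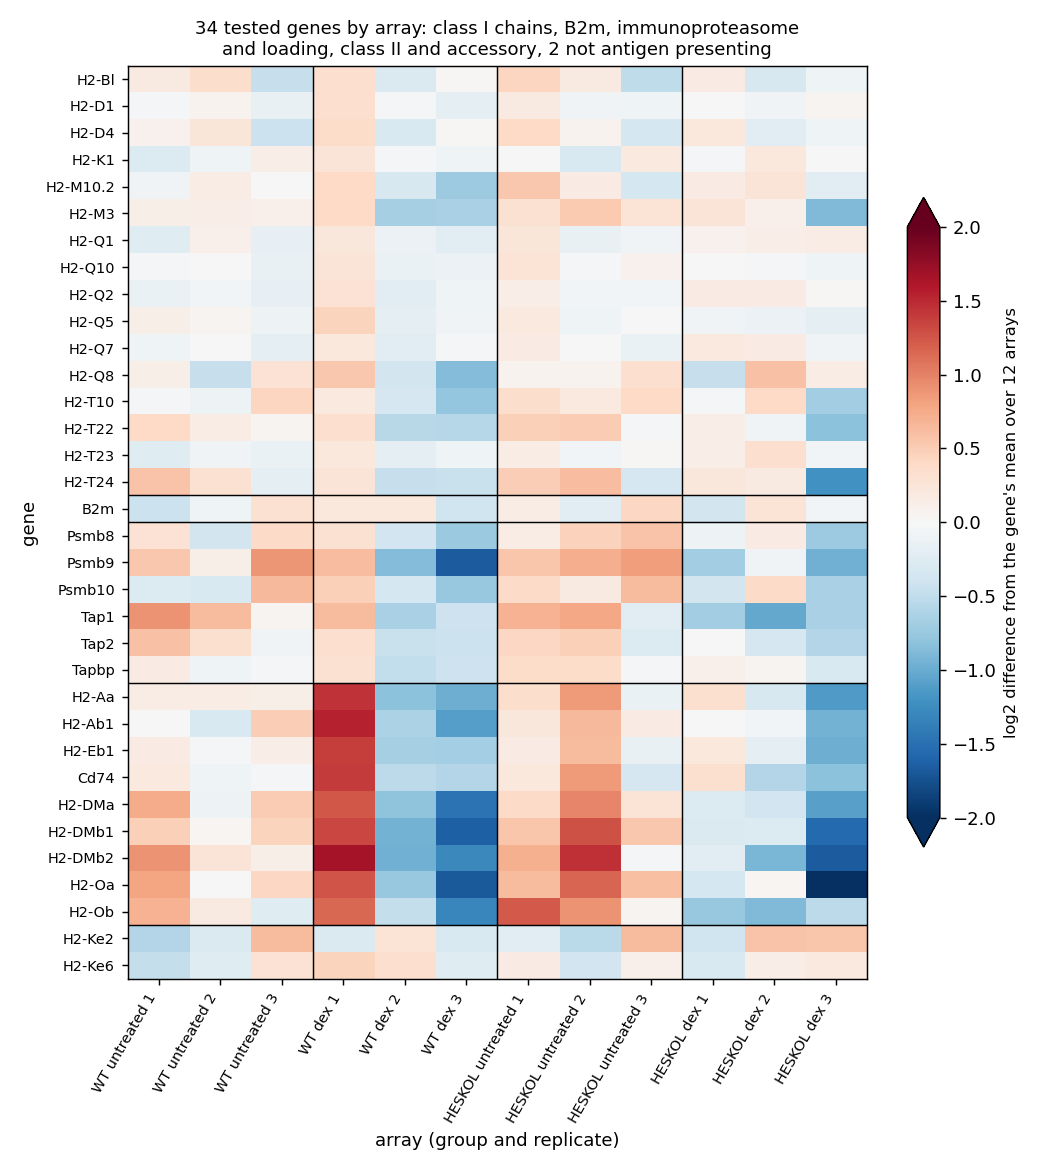
Log2 difference of each of the 34 tested genes (rows, grouped by role) from its own mean, on each of the 12 arrays (columns; red above, blue below, colours limited at 2). WT_dex replicate 1 is red throughout the class II rows while the other WT_dex arrays and HESKOL_dex replicate 3 are blue; class I heavy chains stay pale on most arrays.

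Class I heavy chains did not pass the test in either genotype. Among the 16 tested, changes with dexamethasone ran from -0.47 to 0.13 in wild-type liver and from -0.58 to 0.11 in HESKOL liver. H2-K1, a classical class I heavy chain, read 7.78, 7.98 and 8.19 on the WT_untreated arrays and 8.32, 8.03 and 7.97 on the WT_dex arrays. In HESKOL liver H2-K1 read 8.06, 7.75 and 8.26 without and 8.04, 8.26 and 8.05 with dexamethasone. These ranges overlap, and the change was 0.12 (SE 0.21, limma adjusted p = 0.87) in wild-type and 0.10 (SE 0.21, limma adjusted p = 0.82) in HESKOL liver. H2-D1, the other classical chain, gave 6.80, 6.91 and 6.68 in WT_untreated and 7.17, 6.81 and 6.65 in WT_dex, and 7.02, 6.76 and 6.75 in HESKOL_untreated and 6.83, 6.76 and 6.89 in HESKOL_dex, with all 4 groups overlapping.

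H2-Q10, a soluble chain secreted by the liver, read 7.95, 7.98 and 7.83 in WT_untreated and 8.24, 7.85 and 7.86 in WT_dex. In the HESKOL livers H2-Q10 gave 8.25, 7.94 and 8.07 in HESKOL_untreated and 7.97, 7.96 and 7.89 in HESKOL_dex. H2-T23, the Qa-1 molecule that carries leader peptides of other class I chains to NK cell receptors, read 7.13, 7.31 and 7.24 in WT_untreated and 7.58, 7.19 and 7.28 in WT_dex, then 7.53, 7.33 and 7.40 in HESKOL_untreated and 7.50, 7.72 and 7.32 in HESKOL_dex. On the probes that stand for H2-Q10 and H2-T23 the treated and untreated ranges overlapped in each genotype. Another H2-Q10 probe read 8.03, 7.86 and 7.96 in HESKOL_untreated and 7.64, 7.51 and 7.35 in HESKOL_dex, without overlap. Its change was -0.45 (SE 0.19, limma adjusted p = 0.192 in a fit of every probe). The remaining H2-Q10 probes overlapped in HESKOL liver.

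B2m, the light chain shared by class I molecules, read 6.16, 6.51 and 6.89 in WT_untreated, 6.79, 6.80 and 6.19 in WT_dex, 6.74, 6.37 and 7.0 in HESKOL_untreated and 6.22, 6.87 and 6.53 in HESKOL_dex. Its groups overlapped as well, with changes of 0.07 (SE 0.28) and -0.16 (SE 0.28). The heavy chains with the most negative averaged changes were H2-T22 (-0.53, SE 0.23), a ligand of some gamma-delta T cell receptors, H2-T24 (-0.49, SE 0.29) and H2-M3 (-0.48, SE 0.24), which presents N-formylated peptides; their limma adjusted p-values were 0.154, 0.311 and 0.215. H2-M3 read 0.01, 0.02 and -0.01 in WT_untreated and 0.28, -0.78 and -0.77 in WT_dex. In HESKOL liver it read 0.19, 0.41 and 0.16 without and 0.14, -0.01 and -0.99 with dexamethasone, so the HESKOL groups just failed to overlap. On the other H2-M3 probe they overlapped, with -2.91, -2.26 and -3.76 without and -2.76, -3.81 and -3.9 with dexamethasone.

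Class I chains are near copies of each other, which bears on what a probe reads. Among all pairs of probes of different member genes, 3 shared at least 45 of their 60 bases: H2-Q7 with H2-T23 (50), H2-M10.4 with H2-M10.6 (49) and H2-Bl with H2-K1 (46). The most alike stretches of the pairs between tested genes are shown so that the small number of differing bases, in capitals, can be seen (probe sequence as deposited, 5′ to 3′):
H2-Q7: catcAttggagctgtggtggcttttgtgat
H2-T23: catcCttggagctgtggtggcttttgtgat
H2-Bl: ctactacaaccagagcAAgggcggctTtca
H2-K1: ctactacaaccagagcGCgggcggctCtca
The first pair differs at 1 of 30 bases and the second at 3 of 30. The probes of H2-Q7, H2-T23 and H2-Bl shown here are those that stand for their genes, so the levels of these 3 genes may mix transcripts and are uncertain to that extent. The H2-K1 probe of the pair is not the probe that gave the H2-K1 values above. Cross-hybridisation to other transcripts was not tested.

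Probes of 1 gene did not always move alike. The 2 probes of Psmb8 gave averaged changes of -0.50 and -0.48, and those of H2-Oa -1.20 and -1.16. They parted for H2-Q1, whose representative probe gave 0.09 (SE 0.14) and another -1.08 (SE 0.46, limma adjusted p = 0.158 in a fit of every probe), and for H2-Bl, whose representative probe gave -0.06 (SE 0.22) and the others -0.68 (SE 0.40) and -0.69 (SE 0.40), all well above background on 12 arrays. The second H2-T24 probe, well above background on 11 of 12 arrays, gave -0.11 (SE 0.21) beside -0.485 for the representative probe. The second H2-D1 probe, which the files describe as a thymus leukemia antigen transcript, was well above background on 4 of 12 arrays, and its change is not used.

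The members that passed with the genotypes averaged both belong to peptide supply. Psmb9, the immunoproteasome subunit that replaces a standard catalytic subunit, read 3.39, 2.95 and 3.73 on the WT_untreated arrays and 3.46, 1.97 and 1.17 on the WT_dex arrays. In HESKOL liver Psmb9 read 3.39, 3.57 and 3.68 without dexamethasone and 2.14, 2.77 and 1.88 with it. All 3 HESKOL_dex livers lay below all 3 HESKOL_untreated livers, while in wild-type the first WT_dex liver lay within the untreated range. With the genotypes averaged Psmb9 was 2.33-fold lower (log2 -1.22, SE 0.34, limma adjusted p = 0.0421). Within genotypes the changes were -1.16 (SE 0.48, limma adjusted p = 0.385) and -1.28 (SE 0.48, limma adjusted p = 0.128).

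Tap1, a subunit of the peptide transporter, read 0.72, 0.46 and -0.13 in WT_untreated and 0.45, -0.84 and -0.60 in WT_dex. In HESKOL liver Tap1 read 0.51, 0.59 and -0.41 without and -0.88, -1.21 and -0.84 with dexamethasone. The HESKOL groups did not overlap and the wild-type groups did. The averaged fall was 1.92-fold (log2 -0.94, SE 0.27, limma adjusted p = 0.0453), from -0.68 (SE 0.38, limma adjusted p = 0.531) in wild-type and -1.21 (SE 0.38, limma adjusted p = 0.077) in HESKOL liver.

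The calls of both genes rested on the full set of arrays. Both were lost when any of 9 arrays was left out, namely WT_untreated 1 or 2, WT_dex 2 or 3, HESKOL_untreated 1 or 2, or any HESKOL_dex array; the limma adjusted p then lay between 0.0544 and 0.0957 for Psmb9 and between 0.0734 and 0.106 for Tap1. Without WT_untreated 3 or HESKOL_untreated 3 Psmb9 was lost (0.084 and 0.0779). Without WT_dex 1 the averaged falls were -1.53 for Psmb9 (limma adjusted p = 0.00159) and -1.14 for Tap1 (0.00699). With the slide as a fixed block they were -0.34 and -0.39, each with an adjusted p of 0.986.

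The other genes of this group had averaged changes of the same sign that did not pass: Psmb8, another immunoproteasome subunit, -0.50 (SE 0.23, limma adjusted p = 0.187), Tap2, the partner of Tap1, -0.49 (SE 0.21, 0.16), Psmb10, the third subunit, -0.42 (SE 0.27, 0.343) and Tapbp, which bridges the transporter and the class I molecule, -0.26 (SE 0.18, 0.372). Psmb8 read 3.99, 3.33 and 4.07 in WT_untreated and 3.99, 3.30 and 2.94 in WT_dex, and 3.85, 4.15 and 4.26 in HESKOL_untreated and 3.60, 3.85 and 2.97 in HESKOL_dex. Tap2 read 1.52, 1.26 and 0.86 in WT_untreated and 1.26, 0.49 and 0.50 in WT_dex, and 1.34, 1.41 and 0.66 in HESKOL_untreated and 0.93, 0.59 and 0.34 in HESKOL_dex. The treated and untreated ranges of Psmb8 and Tap2 overlapped in each genotype, in HESKOL liver by a single array on either side. Psmb10 gave 4.72, 4.68 and 5.64 in WT_untreated and 5.47, 4.64 and 4.23 in WT_dex, and 5.38, 5.17 and 5.62 in HESKOL_untreated and 4.63, 5.37 and 4.35 in HESKOL_dex. Tapbp gave 4.59, 4.33 and 4.39 in WT_untreated and 4.71, 3.92 and 3.99 in WT_dex, and 4.78, 4.79 and 4.39 in HESKOL_untreated and 4.52, 4.47 and 4.11 in HESKOL_dex, and both again overlapped. On HESKOL_dex replicate 3 all 4 of these genes were lower than on the other HESKOL_dex arrays.

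**Figure D2:**
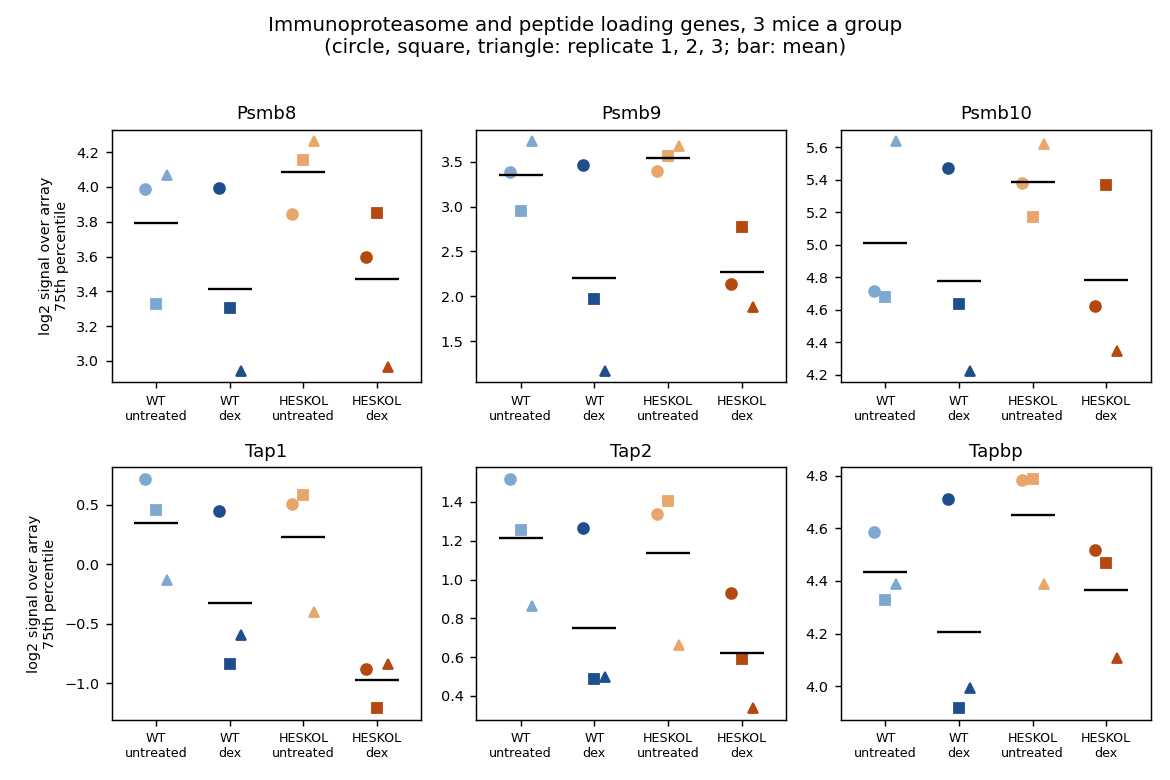
Log2 signal relative to the array's 75th percentile for the 6 immunoproteasome and peptide loading genes in the 4 groups; each symbol is 1 mouse and the bar is the mean of 3. Psmb9 and Tap1 in HESKOL_dex lie below every HESKOL_untreated mouse, and WT_dex replicate 1 (dark blue circle) lies within or, for Tapbp, above the range of WT_untreated in all 6 panels.

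Psmb9 and Tap1, the members that fell, are neighbours transcribed away from each other. On the array design (mm7 build) the Psmb9 probe lies at chr17:32262147-32262206 on the minus strand and the Tap1 probe at chr17:32273751-32273810 on the plus strand. In RefSeq (GRCm38.p6) 225 bases at chr17:34187331-34187555 separate their start sites, and this stretch is shown, plus strand, because it lies before both. Capitals mark, from left to right, a Y box (CTGATTGG on the Psmb9 strand), near the Psmb9 start, and a GC box (GGGCGG on the same strand):
Psmb9 to Tap1: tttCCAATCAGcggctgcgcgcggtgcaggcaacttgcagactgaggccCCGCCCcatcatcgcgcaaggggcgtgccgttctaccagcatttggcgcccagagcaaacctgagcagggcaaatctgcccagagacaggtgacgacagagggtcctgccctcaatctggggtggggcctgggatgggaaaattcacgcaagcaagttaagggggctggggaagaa
On both strands of the 250 bases before each start site, 32.7% of 32851 mouse promoters hold a GC box and 3.83% a Y box. The core letters of a glucocorticoid response element (ACANNNTGT, in 5.84% of promoters), of an interferon-stimulated response element (TTTCNNTTT, in 9.37%) and of a gamma-activated site (TTCNNNGAA, in 7.02%) do not occur in these windows of Psmb9 and Tap1.

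Class II genes had the most negative median, and no member passed the test on all 12 arrays. Of the 9 tested, 8 had a negative change in wild-type and 9 in HESKOL liver, with medians of -0.42 and -1.13. The accessory genes other than Cd74 had larger averaged changes than the chains, and Cd74 had the smallest of the 9. H2-Oa and H2-Ob, which form the modulator H2-O, had averaged changes of -1.20 (SE 0.49, limma adjusted p = 0.135) and -0.93 (SE 0.38, 0.131). H2-DMb2, H2-DMb1 and H2-DMa, parts of the peptide exchanger H2-M, had -1.14 (SE 0.49, 0.158), -1.12 (SE 0.45, 0.131) and -0.93 (SE 0.41, 0.16). The chains H2-Aa, H2-Ab1 and H2-Eb1 and the invariant chain Cd74, which holds the peptide groove until the endosome is reached, had -0.49, -0.41, -0.31 and -0.27, with SEs between 0.36 and 0.41. The difference between accessory genes and chains was not tested.

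H2-DMb1 read 0.88, 0.45 and 0.85 in WT_untreated and 1.74, -0.55 and -1.23 in WT_dex. In HESKOL liver it read 0.96, 1.68 and 0.94 without and 0.12, 0.12 and -1.15 with dexamethasone. The HESKOL groups were separate (change -1.50, SE 0.64, limma adjusted p = 0.176), whereas the WT_dex livers lay on either side of the untreated ones. H2-Ob gave -4.67, -4.99 and -5.84 in HESKOL_untreated and -6.65, -6.78 and -6.42 in HESKOL_dex, again separate (change -1.44, SE 0.53, limma adjusted p = 0.122). The H2-Ob probe was well above background on 3 of 3 arrays of each untreated group but on 2 of 3 of each treated group, so its low values and its changes are uncertain. For H2-Ob in wild-type liver the values were -5.20, -5.71 and -6.14 in WT_untreated and -4.75, -6.38 and -7.19 in WT_dex, which overlapped through WT_dex replicate 1.

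The other accessory genes followed the same arrays. H2-Oa read -2.61, -3.41 and -2.98 in WT_untreated and -2.14, -4.16 and -5.08 in WT_dex, and -2.76, -2.24 and -2.79 in HESKOL_untreated and -3.75, -3.36 and -5.52 in HESKOL_dex. H2-DMa read -0.79, -1.64 and -1.03 in WT_untreated and -0.29, -2.34 and -3.02 in WT_dex, and -1.15, -0.56 and -1.26 in HESKOL_untreated and -1.81, -1.92 and -2.63 in HESKOL_dex. In both genes the HESKOL groups were separate, with changes of -1.62 (SE 0.70, limma adjusted p = 0.18) and -1.13 (SE 0.57, 0.254). H2-DMb2 read -1.14, -1.77 and -1.92 in WT_untreated and -0.38, -3.0 and -3.33 in WT_dex, and -1.33, -0.57 and -2.08 in HESKOL_untreated and -2.27, -2.96 and -3.70 in HESKOL_dex, again separate in HESKOL liver (-1.65, SE 0.70, limma adjusted p = 0.173).

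The chains varied more among the WT_dex livers than their means differed between the wild-type groups. H2-Aa, an alpha chain, read 0.17, 0.16 and 0.14 in WT_untreated and 1.47, -0.81 and -0.95 in WT_dex, and 0.37, 0.87 and -0.12 in HESKOL_untreated and 0.33, -0.29 and -1.11 in HESKOL_dex. H2-Ab1, its beta chain, read 2.85, 2.55 and 3.34 in WT_untreated and 4.38, 2.21 and 1.75 in WT_dex, and 3.07, 3.49 and 3.01 in HESKOL_untreated and 2.84, 2.79 and 1.90 in HESKOL_dex. Only in H2-Ab1 of these chains were the HESKOL groups separate. H2-Eb1, the beta chain of the E molecule, read 1.20, 1.02 and 1.18 in WT_untreated and 2.42, 0.38 and 0.36 in WT_dex, and 1.21, 1.68 and 0.89 in HESKOL_untreated and 1.25, 0.85 and 0.06 in HESKOL_dex. Cd74 read 3.20, 2.94 and 2.98 in WT_untreated and 4.41, 2.50 and 2.43 in WT_dex. In HESKOL liver Cd74 read 3.23, 3.87 and 2.69 without and 3.33, 2.43 and 2.19 with dexamethasone, and these groups overlapped.

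In HESKOL liver 9 of the 34 members lay lower on every treated than on every untreated array, where 18.7% of all features did: Psmb9, Tap1, H2-M3 and, of class II, H2-Ab1, H2-DMa, H2-DMb1, H2-DMb2, H2-Oa and H2-Ob. In wild-type liver 0 of 34 did, where 5.97% of all features did. All HESKOL_dex arrays lay on slide 3 and no HESKOL_untreated array did, so treatment and slide cannot be told apart here. With the slide as a block the HESKOL change was positive for Psmb9 (0.19), H2-Ab1 (0.81), H2-DMa (0.50), H2-DMb1 (0.21), H2-Oa (0.23) and H2-Ob (0.435). It was negative for Tap1 (-0.66), H2-M3 (-0.06) and H2-DMb2 (-0.01).

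**Figure D3:**
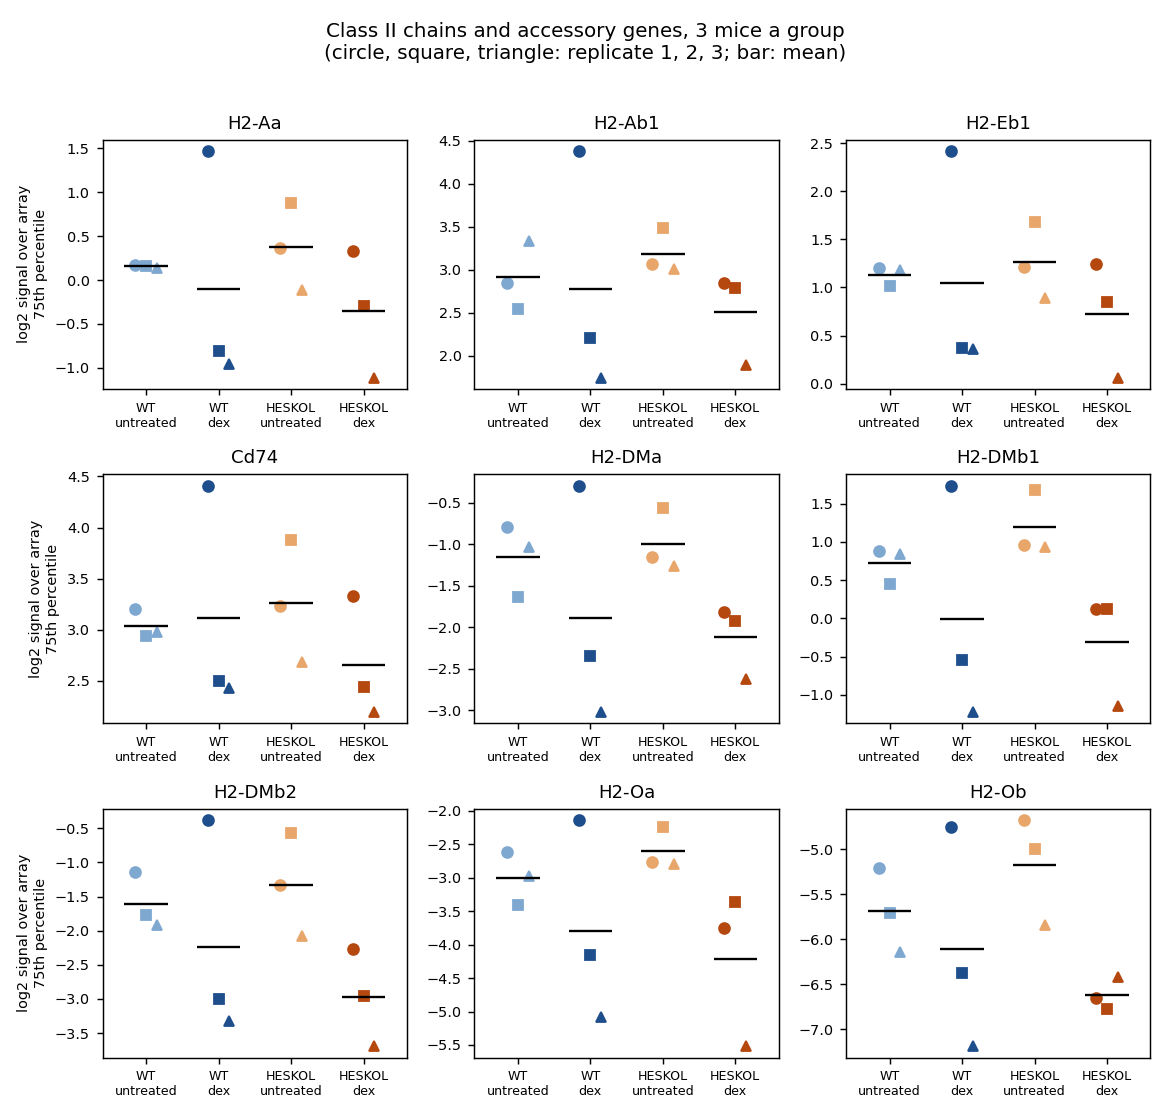
Log2 signal relative to the array's 75th percentile for 4 class II chain and invariant chain genes and 5 accessory genes in the 4 groups; each symbol is 1 mouse and the bar is the mean of 3. WT_dex replicate 1 (dark blue circle) is the highest WT_dex value in all 9 panels, above every WT_untreated mouse, and the other WT_dex mice lie below every WT_untreated mouse in all 9.

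The wild-type values depend on WT_dex replicate 1. Relative to each gene's mean over the 12 arrays, the class II genes had a median of 1.38 on that array, against -0.76 and -1.29 on the other WT_dex arrays. Without it, 20 of 34 members lay lower on every WT_dex than on every WT_untreated array, with 20.0% of all features doing so. The class II median in wild-type liver became -1.10 and that of all 34 members moved from -0.22 to -0.59. In wild-type liver 2 members then fell, Psmb9 (-1.79, SE 0.34, limma adjusted p = 0.0182) and H2-DMa (-1.53, SE 0.36, 0.039), with 3.39% of all features falling. In HESKOL liver, where the values do not change but the pooled spread is smaller, 6 fell (H2-DMa, H2-DMb1, H2-DMb2, H2-Ob, Psmb9 and Tap1), with 8.14% of all features falling. With the genotypes averaged 12 fell, with 13.0% of all features falling. These were 7 of the 9 class II genes (all but H2-Eb1 and Cd74), Psmb9, Tap1, Tap2, H2-M3 and H2-T22. No member was called higher in any of these 3 comparisons without that array.

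**Figure D4:**
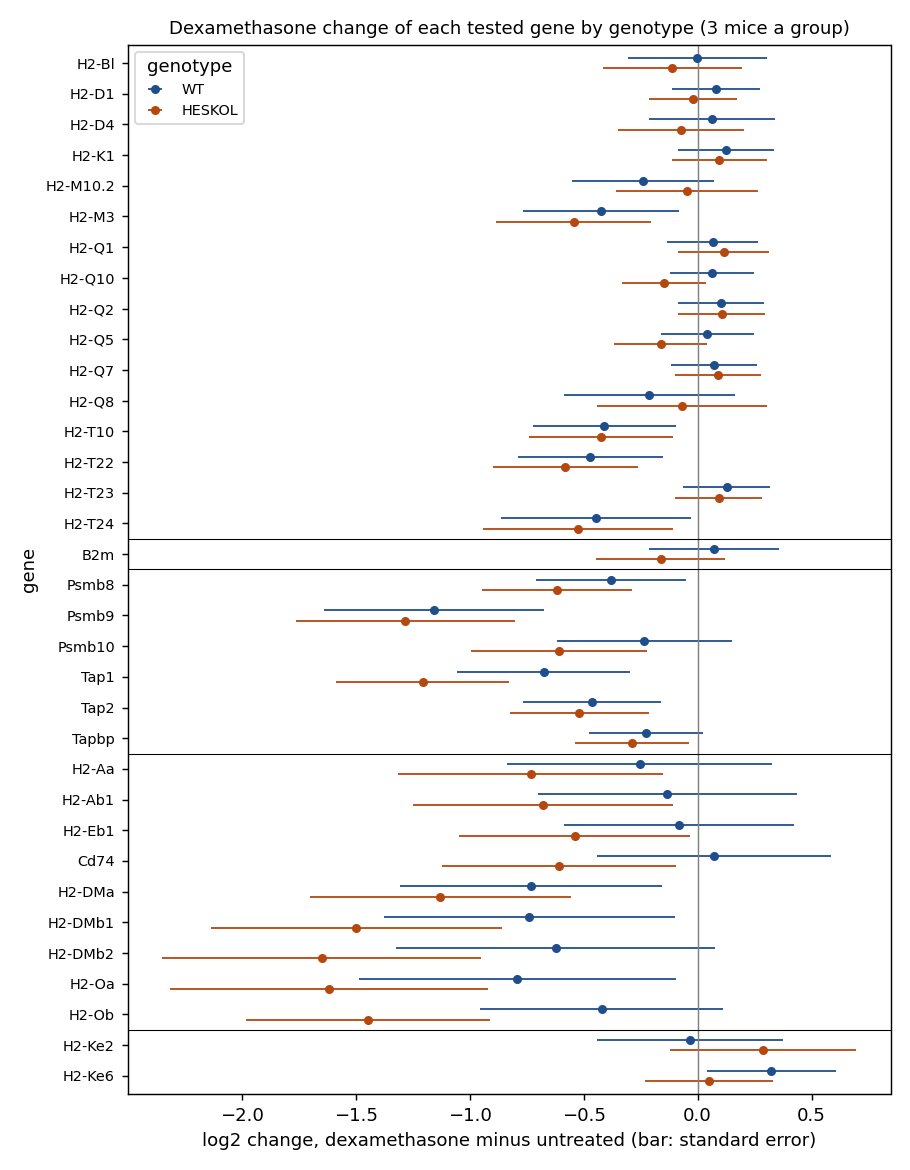
Log2 change with dexamethasone of each tested gene in wild-type (blue) and HESKOL (orange) liver, points with standard errors from limma, 3 mice a group, genes in the order of the heat map. Most class I heavy chains lie near 0, with H2-M3, H2-T10, H2-T22 and H2-T24 below it, and Psmb9 and Tap1 lie below 0 in both genotypes. The class II accessory genes lie further below 0 in HESKOL than in wild-type liver, a difference that did not pass for any gene. Without WT_dex replicate 1 the wild-type change was more negative than that in HESKOL for H2-DMa (-1.53, -1.13) and H2-DMb1 (-1.61, -1.50). It was less negative for H2-DMb2 (-1.55, -1.65), H2-Ob (-1.10, -1.445) and Cd74 (-0.575, -0.609), and -1.62 in both genotypes for H2-Oa.

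Class II promoters carry a shared set of elements, the X and Y boxes, at which Ciita acts through bound factors. A core of the X box (AACNGATG) and the Y box (CTGATTGG) were searched on both strands in the 250 bases before each RefSeq start site, found for 33 of the 44 genes. The X box core occurred in 4 of the 33 (H2-Eb1, H2-DMb1, H2-DMb2 and H2-M10.4), beside 1.98% of all promoters, and the Y box in 16, beside 3.83%. Of the class II genes only H2-Aa, H2-Eb1 and H2-Oa held the Y box. The other Y box genes were Psmb9 and Tap1, which share the same site, H2-D1, H2-Q7, H2-T23 and all the M region genes that were not tested for expression. A kappa B site (GGGATTCCC) occurred in 3, H2-D1, H2-K1 and H2-Q7, beside 0.301%. No searched motif overlaps another in the stretches shown. These shares describe gene families of common origin and carry no test. The 150 bases before the start of H2-Eb1, H2-DMb1 and H2-K1 are shown as examples of a class II chain, a class II accessory gene and a class I chain, on each gene's own strand (GRCm38.p6, at chr17:34305717-34305866, chr17:34153041-34153190 and chr17:34000348-34000497 in turn, the last on the minus strand). Capitals mark the X box core and Y box in H2-Eb1, the X box core in H2-DMb1 and the kappa B site in H2-K1:
H2-Eb1: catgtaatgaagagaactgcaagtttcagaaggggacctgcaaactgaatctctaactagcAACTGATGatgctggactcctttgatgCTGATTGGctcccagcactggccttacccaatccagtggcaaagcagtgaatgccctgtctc
H2-DMb1: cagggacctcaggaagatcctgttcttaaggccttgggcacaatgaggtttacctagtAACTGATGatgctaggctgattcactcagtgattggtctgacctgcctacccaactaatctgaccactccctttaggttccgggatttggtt
H2-K1: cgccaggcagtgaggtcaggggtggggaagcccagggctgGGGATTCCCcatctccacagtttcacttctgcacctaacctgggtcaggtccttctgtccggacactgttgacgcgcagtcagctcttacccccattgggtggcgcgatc
By the letters above, a glucocorticoid response element was found in 4 of the 33, of which H2-Ob was tested for expression, an interferon-stimulated response element in 6, among them B2m, H2-DMa, H2-T22 and H2-T23, and a gamma-activated site in 4, among them Psmb8, H2-DMb2 and H2-M3. An E box of the type bound by Hes proteins (CACGNG, in 23.5% of all promoters) was found in 6. Only these exact letters were searched, so a promoter without a match may still hold an element that differs from them.

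Markers of B cells and of Kupffer cells and macrophages, which make class II molecules, were broadly high and low on the same arrays as the class II genes. Those of T and NK cells followed the class II genes on the WT_dex arrays (medians relative to their own means of 0.38, -0.55 and -1.21). Both were lowest of the HESKOL_dex group on its replicate 3. On the HESKOL_untreated arrays the T and NK cell medians were 0.265, 0.34 and 0.49, where the class II medians were 0.39, 0.90 and 0.05. Dendritic cell markers followed the class II genes only in part. The B cell and the Kupffer cell and macrophage medians were highest on HESKOL_untreated replicate 1 (1.51 and 0.84), the class II median on WT_dex replicate 1 (1.38). The summed level of 6 B cell markers ran from -0.42 to 0.40 in WT_untreated, -2.55 to 0.48 in WT_dex, -0.11 to 1.08 in HESKOL_untreated and -2.12 to -0.59 in HESKOL_dex, with WT_dex replicate 1 the highest of its group. All 6 had negative changes in both genotypes, with medians of -1.06 and -1.65, and 2 fell with the genotypes averaged, Cd79a (-1.0, limma adjusted p = 0.0391) and Ms4a1 (-2.55, 0.0337). In that comparison 6.51% of all features fell and 989 of 18730 rose. Summed levels of 8 Kupffer cell and macrophage markers ran from 6.78 to 7.58, 6.25 to 7.47, 7.02 to 8.07 and 5.99 to 7.42 in the same order of groups. Their median changes were -0.33 and -0.92 in wild-type and HESKOL liver, and Adgre1 fell with the genotypes averaged (-1.03, limma adjusted p = 0.0437). The 7 tested T and NK cell markers had median changes of -0.70 and -0.98, and 6 dendritic cell markers of -0.52 and -0.09. Relative to their own means the dendritic cell markers had medians of 0.00 on WT_dex replicate 1 and 0.31, 0.32 and -0.30 on the HESKOL_dex arrays, and 1 of them, Xcr1, rose with the genotypes averaged (0.53, limma adjusted p = 0.0482). Without WT_dex replicate 1, with 13.0% of all features falling, the averaged fall was called for 6 of 6 B cell, 3 of 8 Kupffer cell and macrophage, 4 of 7 T and NK cell and 1 of 6 dendritic cell markers. With the slide as a block the averaged medians were 0.18 for B cells, 0.09 for Kupffer cells and macrophages, 0.05 for T and NK cells and -0.40 for dendritic cells. Of these markers Ncr1 was well above background on 0 arrays. The part of these markers in the class II and peptide supply results was not tested, and in whole liver fewer cells of a type and less RNA per cell cannot be told apart.

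The regulators of these genes were read from lists chosen by name. Ciita, the class II coactivator, fell in HESKOL liver (-2.41, SE 0.59, limma adjusted p = 0.0338) and with the genotypes averaged (-1.54, SE 0.42, 0.0381). It was the only gene of the 8 class II regulators tested that changed in any comparison on all arrays. Of all features 7.86% changed in HESKOL liver and 11.8% with the genotypes averaged. The values of Ciita were -1.91, -2.56 and -2.30 in WT_untreated and -1.73, -3.05 and -3.98 in WT_dex. In HESKOL liver Ciita read -1.95, -1.38 and -2.16 without and -3.97, -3.32 and -5.43 with dexamethasone, without overlap. With the slide as a block its averaged change was -0.60.

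Of 8 class I and interferon regulators tested, 2 fell in HESKOL liver, beside 791 of 18730 features, and 3 with the genotypes averaged, beside 6.51%. Irf1, an interferon-induced activator of class I, immunoproteasome and transporter genes, read 3.29, 3.63 and 4.19 in WT_untreated and 4.78, 3.05 and 3.50 in WT_dex. It read 3.95, 3.83 and 4.12 in HESKOL_untreated and 2.08, 1.74 and 1.79 in HESKOL_dex. Irf1 thus fell in HESKOL liver (-2.10, SE 0.39, limma adjusted p = 0.0121) and was lower in HESKOL_dex than in WT_dex (-1.90, SE 0.39, 0.0478), while the wild-type change was 0.07 (SE 0.39). Without WT_dex replicate 1, the highest of the WT_dex values, the wild-type change was -0.43 (limma adjusted p = 0.42) and the difference between HESKOL_dex and WT_dex -1.40 (0.0342). The difference between its dexamethasone changes did not pass (-2.17, SE 0.55, limma adjusted p = 0.393; -1.67 and 0.205 without that array). Irf9 and Stat2, partners in type I interferon signalling, fell with the genotypes averaged by 0.72 (adjusted p = 0.0263) and 0.79 (0.031), and Irf9 also fell in HESKOL liver by 0.90 (0.0489). No probe was matched to Nlrc5, the class I coactivator.

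Among 16 interferon target genes, 2 fell in HESKOL liver, beside 791 of 18730 features: Igtp and Iigp1, both immunity-related GTPases. With the genotypes averaged 5 fell, beside 6.51% of all features, among them Ifit2, Igtp, Iigp1 and Ifi44. Without WT_dex replicate 1 the latter count was 12, beside 13.0% of all features falling, and with the slide as a block the median of the 16 moved from -0.69 to -0.03. Among 12 further genes of peptide supply and loading, 3 rose with the genotypes averaged, beside 989 of 18730 features. These were Psme3, a proteasome activator subunit, by 0.72, the chaperone Calr by 0.55 and the chaperone Hspa5 by 1.27. The tapasin relative Tapbpl fell (-0.76, limma adjusted p = 0.0328). The chaperones also serve protein folding in general. Among 10 genes of endosomal processing Ctsl, a cathepsin, rose by 0.53, and among 9 class I-like molecules Mr1, which presents vitamin B metabolites, fell (-1.21, limma adjusted p = 0.0292). Of 6 costimulatory genes tested Cd274 (PD-L1) fell in HESKOL liver (-2.86, limma adjusted p = 0.022) and with the genotypes averaged (-1.67, 0.0346); without WT_dex replicate 1 it fell in wild-type liver too (-1.47, 0.00924), and with the slide as a block its averaged change was -0.51.

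Genotype made no difference that passed the test for any member. Without treatment 0 of 34 passed, beside 0% of all features, with 0 members at an unadjusted p under 0.05 (1.59% of all features, limma). Of the 34, 32 had a positive value (58.3% of all features did), with a median of 0.17 beside 0.04 over all features. In 3 genes, H2-T23 (0.19, SE 0.19), H2-M3 (0.25, SE 0.34) and H2-DMb1 (0.47, SE 0.64), all HESKOL_untreated arrays lay above all WT_untreated arrays, which 4.15% of all features did. The 2 negative changes were in the loading group, where Tap1 had -0.12 and Tap2 -0.08.

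With treatment 0 of 34 passed, beside 1.14% of all features, and 0 were at an unadjusted p under 0.05 (15.7% of all features, limma). The median over members was -0.05, and all 9 class II genes had negative values, with a median of -0.33, which became 0.40 without WT_dex replicate 1. For the difference between the dexamethasone effects 0 of 34 passed, beside 0.0160% of all features, and 0 were at an unadjusted p under 0.05 (6.64%). The smallest p was that of H2-Ob (difference -1.02, SE 0.76, limma adjusted p = 0.869). The class II median difference of -0.68 became 0.12 without WT_dex replicate 1 and 0.38 with the slide as a block.

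The 10 members that were not tested were the class II chain H2-Ea, the T region gene H2-T3 and the M region genes H2-M1, H2-M9, H2-M10.1, H2-M10.3, H2-M10.4, H2-M10.5, H2-M10.6 and H2-M11. Their probes were not well above background on any of the 12 arrays. H2-Ea is silent in C57BL/6 mice, which carry a deletion in its promoter, and the M10 family is known from the vomeronasal organ. H2-M10.2 was the M10 gene that could be tested, with changes of -0.24 and -0.05. A pair of members named for their place in the complex, H2-Ke2, a prefoldin subunit, and H2-Ke6, a steroid dehydrogenase, do not present antigen; their averaged changes were 0.13 (SE 0.29) and 0.19 (SE 0.20).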

How the data were processed

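Total RNA (500 ng) was labelled with Cy3 and hybridised to 1-colour arrays, per the labels' protocols. Per the file headers, the authors made the spot intensity values in version 9.5.3.1 of Agilent Feature Extraction (9.5 per the submitters' processing notes). The processed intensity they deposited is linear and had its background removed by that software. The series table held the same intensity values (ratio 1.0).

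Here log2 processed signal minus each array's 75th percentile was used. Spots marked as outliers were dropped, spots of a probe averaged, and the probe with the highest mean over 12 arrays stood for its gene. Of 41174 probes 22951 were named through accessions. Group means of all 12 arrays were fitted with limma 3.58.1 (lmFit, eBayes; R 4.3.3; 8 residual and 3.12 prior degrees of freedom), and p-values adjusted by Benjamini-Hochberg over 18730 features, genes or unnamed probes. The 3 arrays a group limit precision. Replicates are separate mice, per the series design. Replicate numbers did not pair the samples: 6 of 18 same-numbered pairs had deviations correlated over 0.1 (range -0.4 to 0.623).

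The members, lists and named genes were chosen with earlier results of these data known. Per-array values are given for the defining genes of each step and every called member, other members by range and count, and from the lists the called genes, up to 4 a list in order of p, with Nlrc5, Ciita and Irf1; 1 further gene of that rule is not reported here. Other scaling, background correction, filters, probe choice, slide and replicate blocks, array weights and omitted arrays were tried. Scripts were tested on simulated data.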

Additional observations from a re-analysis of the deposited data

How the results depend on the processing

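Of 15 alternatives and the omission of each array in turn, none turned the direction of the averaged changes of Psmb9 and Tap1. With the slide as a fixed block the change of Psmb9 in HESKOL liver turned positive (0.19). Of the members called with the genotypes averaged only without WT_dex replicate 1, H2-Ob (0.65), H2-Ab1 (0.51), H2-Aa (0.36) and H2-DMa (0.05) had positive averaged changes in that block fit. The others stayed negative. In wild-type liver 0 members were called with dexamethasone, but 2 with array weights, and 0 to 2 when 1 array was left out. In HESKOL liver the count was 0, but 1 with the slide as a random block, 9 with array weights and 3 with only the groups compared, and 0 to 6 when 1 array was left out, the highest without WT_dex replicate 1. With the genotypes averaged the count was 2, but 1 on the deposited values without scaling, 0 with no filter on dim probes, 0 with the slide as a fixed block, 13 with array weights and 0 at an adjusted p under 0.01. It was 0 to 12 when 1 array was left out, again highest without WT_dex replicate 1. All of these calls were lower. With the replicate block, in which numbers that did not pair the samples enter the fit, it was 1, with adjusted p-values of 0.0524 for Psmb9 and 0.0306 for Tap1. Over the other alternatives on all 12 arrays the adjusted p lay between 0.00255 and 0.986 for Psmb9 and between 0.00075 and 0.986 for Tap1. Without WT_dex replicate 1, 3.39% of all features fell in wild-type liver, 8.14% in HESKOL liver and 13.0% with the genotypes averaged. For the other alternatives the shares over all features are not given, so those counts do not set the members apart from other features. Both genotype comparisons and the difference of dexamethasone effects gave 0 members under every alternative. The cause of these differences was not tested; the slide block leaves the dexamethasone effect to comparisons across genotypes, and the 10 dim members have no measured level.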
